A study of Mus musculus with 12 samples.

Results

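The genes described here are the cytosolic translation factors and tRNA synthetases of mouse cortical cultures. They were taken as the rows of the count table whose symbol starts with Eif or Eef and a digit (58 initiation and elongation factors and their regulators) together with 20 named cytosolic aminoacyl-tRNA synthetases. That gave 78 of 12145 rows. All 78 were matched to a gene of GENCODE M21 (genome build GRCm38, also called mm10), and all 78 passed the filter on low counts that left 12119 genes for testing. The rule itself uses symbols and no measured value, though it was set with earlier results of these data known.

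Cultures were prepared from the cortex of C57BL6 mouse embryos at E16.5-E17.5 (days of gestation). On day 6 in vitro they were infected with a lentivirus, either empty or expressing miR-29, at a total multiplicity of infection of 2, so every group carries a virus. On day 14, 2 of the 4 groups were put through oxygen-glucose deprivation (OGD), an in vitro model of ischemia in which oxygen and glucose are withdrawn, for 3 h, followed by 4 h in normal medium. The sham groups had a buffer rinse in normal oxygen. The 4 groups are called sham-empty and OGD-empty for the empty virus, and sham-miR-29 and OGD-miR-29 for the other. Each has 3 replicates, cultures dissected on separate days, but the column of sham-empty replicate 3 does not hold read counts, so sham-empty has n = 2 and the other groups n = 3. In 75 of the 78 rows that column equals a tally of same-strand genes that overlap the gene or the 10 kb downstream of it. The promoter that drives miR-29 and the cell types it reaches are not given in the sources used here.

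Translation starts when eIF2, carrying the initiator tRNA, joins the small ribosomal subunit with eIF1, eIF1A, eIF3 and eIF5, and when the eIF4 factors bring the capped mRNA to it. eIF2B recharges eIF2 with GTP after each round. The stress-sensing eIF2 alpha kinases block that step by phosphorylating eIF2 alpha, which lowers translation of most mRNAs and raises that of a few, among them the transcription factor ATF4. Elongation runs on eEF1 and eEF2, and the synthetases charge each tRNA with its amino acid. Translation is a large energy cost of a neuron and is repressed in ischemic brain tissue through eIF2 alpha and eEF2 phosphorylation, neither of which an RNA count can show.

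Depth was low. The counts of the 11 libraries summed to 1337564 to 6616920, of which 57.6% to 84.1% lay in the 37 rows of the mitochondrial genome, and the median count of the 78 genes was 14 to 83.5 per library. The mitochondrial share was lower in the OGD-empty libraries (57.6% to 76.4%) than in the sham-empty libraries (82.7% and 84.1%). Rows overlap: 43 of the 78 genes have an annotated neighbour on either strand whose row holds over 0.5 of their own count, and the counting region and the use of strand are not given in the sources used here, so reads of a gene and its neighbour cannot be told apart there. On the same strand, 29 of the 78 were alone within the gene and 10 kb downstream. All 8 listed neuron markers were in the table. Their summed level was 1042 to 1309 CPM (counts scaled by library size to a common total) in OGD-empty. It was 742 to 873 in OGD-miR-29 and 840 to 1009 in the sham groups. The list was split, though: from sham-empty to OGD-empty 4 of the 8 had a positive log2 fold change and 4 a negative one. None of the 8 passed an adjusted p under 0.05 in edgeR's quasi-likelihood F test. Of the other marker lists, 5 of 6 astrocyte, 3 of 7 oligodendrocyte, 3 of 8 microglia and 0 of 6 endothelial and pericyte genes were in the table, and the microglia sum was 18.8 to 28.0 CPM in OGD-empty against 28.1 to 40.8 in the other groups.

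The 78 genes together took a smaller part of the counts in OGD-empty cultures than in any other group. As a percentage of the counts outside the mitochondrial rows, they held 1.125% and 1.19% in sham-empty, 0.897%, 0.672% and 0.911% in OGD-empty, 1.16%, 1.025% and 1.20% in sham-miR-29, and 1.25%, 1.27% and 1.36% in OGD-miR-29. The 3 OGD-empty libraries lie below all 8 others and the 3 OGD-miR-29 libraries above the other 8. In bulk RNA, fewer cells of a type and less of the RNA per cell cannot be told apart.

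**Figure D1:**
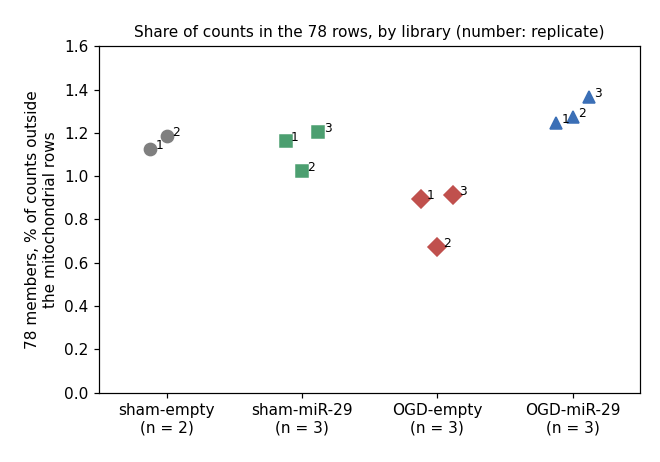
Percentage of the counts outside the mitochondrial rows that fell in the 78 rows of translation factors and tRNA synthetases (vertical axis), by group (horizontal axis); each point is a library and the number beside it is its replicate. The OGD-empty libraries lie between 0.672% and 0.911% and the OGD-miR-29 libraries between 1.25% and 1.36%.

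The first comparison asks how OGD changed these genes under the empty virus. In all, 5 members fell and 0 rose at an adjusted p under 0.05 (edgeR's quasi-likelihood F test, Benjamini-Hochberg over all 12119 genes), against 3.61% of all genes lower and 1.48% higher. The median log2 fold change of the 78 was -0.33, with 55 below 0, beside 0.02 over all genes tested. In 30 of the 78 the OGD-empty libraries lay wholly below the sham-empty ones and in 5 wholly above, where 21.6% and 22.0% of all genes did so. All 5 called members are factors, 3 of initiation by the eIF4A helicases and eIF3, 1 of start codon selection and 1 of elongation. No synthetase was called, and the 20 had a median of -0.23.

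Eif4a1 (chr11:69666936-69672423, protein coding like all genes named with a position here), the helicase that unwinds 5′ leaders for the scanning ribosome, fell furthest. Its level was 208 and 164 CPM in sham-empty and 43.7, 73.6 and 42.9 in OGD-empty, a log2 fold change of -1.80 ± 0.27 (SE; adjusted p = 0.00212). The groups do not overlap, and the highest OGD-empty library is below either sham-empty library. Its paralog Eif4a2 (chr16:23107444-23114136) went from 165 and 182 CPM to 79.1, 92.1 and 70.8 (-1.10 ± 0.26, adjusted p = 0.0204). Eef1b2 (chr1:63176825-63180486), an exchange factor that reloads eEF1A with GTP, went from 25.9 and 43.4 CPM to 15.1, 16.7 and 18.2 (-1.10 ± 0.28, adjusted p = 0.0290). For Eif3i (chr4:129591960-129600648), an eIF3 subunit, the values were 10.9 and 23.15 CPM in sham-empty and 8.185, 7.23 and 9.11 in OGD-empty (-1.13 ± 0.32, adjusted p = 0.0464). Eif1, which guards start codon choice, stood at 20.9 and 11.6 CPM and then at 7.72, 6.32 and 7.50 (-1.09 ± 0.32, adjusted p = 0.0491). The 2 sham-empty libraries stand apart for Eif3i and Eif1, and both calls are close to the threshold. As their groups do not overlap, all 5 were necessarily lower in both same-day pairs.

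Near the threshold stood 5 more factors with a lower level in every OGD-empty library: Eif3l (-0.95 ± 0.28), Eef1e1, an auxiliary protein of the synthetase complex (-1.32 ± 0.40), Eif1b (-0.97 ± 0.30), Eif3k (-1.08 ± 0.34) and Eef1a1 (-0.69 ± 0.23), with adjusted p from 0.0519 to 0.0721. With the dissection day as a block the count of called members went from 5 to 9, all lower: Eef1a1, Eef1e1, Eif3l and Sars were added. The share of all genes called in that fit also went up, to 5.69% higher and 5.61% lower. The calls rest on the 2 sham-empty libraries. Without sham-empty replicate 1 the count was 0 (Eif4a1 -1.61, adjusted p = 0.0704), and without sham-empty replicate 2 it was 1 (Eif4a1 -1.94, adjusted p = 0.024). Several central genes of the pathway had values within their error of 0: Eif5 (0.14 ± 0.26), Eif4g1 (0.07 ± 0.22), Eef1a2 (0.07 ± 0.26), the neuronal form of eEF1A, and Eef2k (0.10 ± 0.38), the kinase that inactivates eEF2.

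Under the miR-29 virus the same treatment gave no called member. Comparing OGD-miR-29 with sham-miR-29, edgeR called 0 of 78 in either direction, as did DESeq2 and limma-voom, with 0.0165% of all genes higher and 0% lower; 7 members and 1111 of all genes had an unadjusted p under 0.05. The median of the 78 was 0.21 (62 above 0) beside -0.004 over all genes. The OGD-miR-29 libraries lay wholly above the sham-miR-29 ones for 14 members and wholly below for 1, where 8.19% and 8.69% of all genes did so. The largest value was that of Mars, the methionyl-tRNA synthetase, at 34.1, 30.75 and 42.4 CPM in sham-miR-29 and 49.05, 54.0 and 88.9 in OGD-miR-29 (0.82 ± 0.22, adjusted p = 0.427). The Eif4a1 libraries overlapped (150.2, 106.5 and 109 CPM against 169, 119 and 200; 0.42 ± 0.24, adjusted p = 0.595).

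In sham cultures the 2 viruses were also not told apart. Of the 78 members edgeR, DESeq2 and limma-voom each called 0, and no gene of the table was called (0% higher, 0% lower); 3 members and 405 of all genes had an unadjusted p under 0.05. The median was -0.06 beside -0.003 over all genes, with 8 members wholly above and 11 wholly below, where 10.6% and 11.9% of all genes were. The values furthest from 0 were those of Eif1 (-0.89 ± 0.31) and of Kars, the lysyl-tRNA synthetase (0.82 ± 0.37), both with an adjusted p of 0.9995.

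miR-29 acts through the bases near its 5′ end, so the 3′ UTRs of the members were searched for the match to that seed. The 3 mature forms share bases 2 to 8, shown in capitals (RefSeq, GRCm38.p6; miR-29a at chr6:31062673-31062694 on the minus strand, miR-29b at chr1:195037091-195037113 and miR-29c at chr1:195037600-195037621 on the plus strand).
miR-29a-3p: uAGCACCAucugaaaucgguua
miR-29b-3p: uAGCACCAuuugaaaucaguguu
miR-29c-3p: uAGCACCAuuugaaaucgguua

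The matching letters TGGTGCT were found in the longest principal 3′ UTR (GENCODE M21) of 9 of 77 members (11.7%), and in 15.5% of 9927 other genes of the table; the members' 3′ UTRs are shorter (median 527 against 1150 bases). The 9 are Eef1d, Eef2k, Eif3j1, Eif4a3, Eif4b, Eif4e, Eif4e2, Eif4h and Eif5b. The stretches of 3 genes of the cap-binding step are shown, with the match in capitals: both sites of Eif4e2, another cap-binding protein, at chr1:87228037-87228065 and chr1:87228274-87228302 on the plus strand, the site of Eif4e, the cap-binding protein, at chr3:138558071-138558099 on the plus strand, and that of Eif4h, which stimulates eIF4A, at chr5:134620666-134620694 on the minus strand.
Eif4e2, site 1: agatcacaaataaaTGGTGCTaaaccagc
Eif4e2, site 2: aagacccaactgccTGGTGCTcaagtgta
Eif4e: atgaatgtttttatTGGTGCTctaaatca
Eif4h: gtaggaagcaggggTGGTGCTggagctgc

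In sham cultures the 9 genes had a median log2 difference, miR-29 over empty virus, of -0.09 (range -0.40 to 0.23), and the 68 without a match -0.05. After OGD the medians were 0.22 and 0.53. Of the 9 genes with a match, 4 were above 0 in sham cultures and 6 after OGD. Eif4e2 was at 18.9 and 15.05 CPM in sham-empty and 12.1, 10.4 and 14.9 in sham-miR-29, wholly below (-0.40 ± 0.31, adjusted p = 0.9995), and Eif4e at 18.9 and 18.5 against 16.3, 13.8 and 13.4 CPM, also wholly below (-0.37 ± 0.27, adjusted p = 0.9995). After OGD, Eif4e was at 14.98, 16.3 and 15.01 CPM with the empty virus and 11.02, 13.4 and 9.13 with miR-29 (-0.45 ± 0.23, adjusted p = 0.122). Eif4h, Eif4b and Eef1d, which also hold a match, were called higher with miR-29 after OGD, as given further on, where 17.2% of all genes were. A match is a run of letters and not a measured binding site.

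The widest difference lay between the viruses after OGD, the comparison of OGD-miR-29 with OGD-empty. In it 28 members were higher and 2 lower. Of all genes 17.2% were higher and 19.9% lower, so the share of members called, 38.5%, is near the 37.1% of all genes; the direction is what differs, with a median of 0.52 for the 78 (60 above 0) beside 0.02 for all genes. The OGD-miR-29 libraries lay wholly above for 41 members and wholly below for 4, where 25.0% and 25.2% of all genes did so. The 28 higher members are 21 of 58 factors and 7 of 20 synthetases, with medians of 0.51 and 0.53 over all genes of each kind. Every one of the 30 called members went the same way in 3 of 3 same-day pairs, with no overlap between the groups. The calls come from these same libraries, and groups without overlap make every pair agree, so this is not separate support. OGD-empty is also the group that was low against sham-empty, and the 2 comparisons share those 3 libraries.

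**Figure D2:**
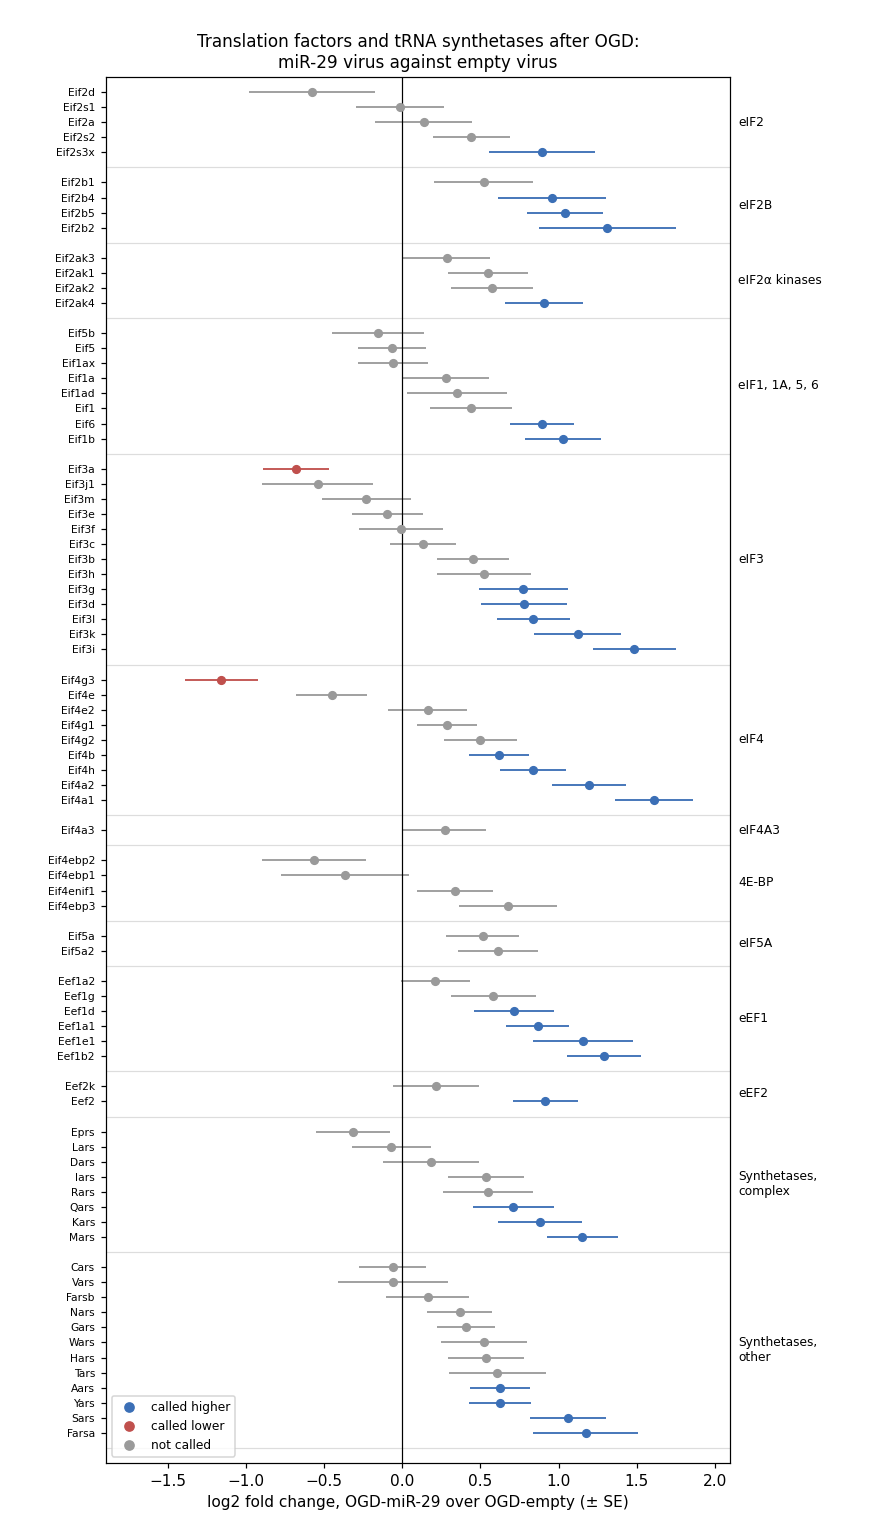
Log2 fold change of OGD-miR-29 over OGD-empty (horizontal axis, points, with bars of 1 SE) for the 78 members, grouped by role and ordered within each role; n = 3 libraries per group. Blue points are called higher (28), red points called lower (2) and grey points not called (48).

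Among the genes of the eIF2 cycle, 3 of 4 eIF2B subunits and 1 of the 5 genes of eIF2 and its loading rose. Eif2b5 (chr16:20498817-20509323), the catalytic subunit, was at 12.2, 9.03 and 13.4 CPM with the empty virus and 19.8, 23.2 and 29.8 with miR-29 (1.04 ± 0.24, adjusted p = 0.00307). Eif2b2 (1.31 ± 0.44, adjusted p = 0.0245) and Eif2b4 (0.96 ± 0.35, adjusted p = 0.0348), both regulatory subunits, rose on low levels, 0 to 9.45 CPM, with OGD-empty replicate 3 at 0 for Eif2b2. Both depend on the setting: Eif2b2 was called in 10 of 15 alternatives (adjusted p up to 0.111) and Eif2b4 in 7 of 15 (up to 0.212), while Eif2b5 was called in 15 of 15. Eif2s1, the alpha subunit that the stress kinases phosphorylate, was at 8.34, 9.48 and 8.04 CPM and 7.165, 9.85 and 9.13 CPM (-0.02 ± 0.28), while the gamma subunit Eif2s3x rose (0.89 ± 0.34, adjusted p = 0.0430). Of the 4 eIF2 alpha kinases only Eif2ak4, the kinase GCN2 that senses uncharged tRNA, was called, at 18.5, 22.1 and 17.7 CPM against 27.0, 30.7 and 53.4 (0.91 ± 0.25, adjusted p = 0.00815). Its highest library, OGD-miR-29 replicate 3, carries the call, since without it the value was 0.57 (adjusted p = 0.0695). Eif2ak3, the kinase PERK of the endoplasmic reticulum, had overlapping groups (0.28 ± 0.28, adjusted p = 0.438). The remaining genes of the cycle, none of them called, were Eif2s2 (0.44 ± 0.24), Eif2a (0.14 ± 0.31), Eif2d (-0.58 ± 0.40), Eif2b1 (0.52 ± 0.32), Eif2ak1 (0.55 ± 0.26) and the kinase PKR, Eif2ak2 (0.57 ± 0.26).

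eIF3, the scaffold of the small subunit, with 13 members in the table, was split. Of its subunits 5 rose and 1 fell. Eif3i was at 8.185, 7.23 and 9.11 CPM with the empty virus and 20.2, 23.2 and 25.96 with miR-29 (1.49 ± 0.26, adjusted p = 0.000659), next to Eif4a1 in size. Eif3k (1.12 ± 0.28), Eif3l (0.84 ± 0.24), Eif3d (0.78 ± 0.27) and Eif3g (0.77 ± 0.29) rose as well, with adjusted p from 0.00448 to 0.0385. Eif3a (chr19:60761117-60790658), the largest subunit, on which the others assemble, fell from 40.5, 30.7 and 46.1 CPM to 27.9, 21.3 and 23.1 (-0.68 ± 0.21, adjusted p = 0.0167). Eif3i has no annotated neighbour on either strand, Eif3l lies opposite Gm25072, a row of 0.61 times its count (0.78, adjusted p = 0.0476), and Eif3k lies with Actn4, a row of 0.81 times its count that was not called (-0.40, adjusted p = 0.274). Of the factors of start codon scanning and subunit joining, Eif1b (1.03 ± 0.24, adjusted p = 0.00355) and Eif6, which keeps free large subunits from joining (0.89 ± 0.21, adjusted p = 0.00309), rose, and Eif5, which triggers GTP hydrolysis on eIF2, was within its error of 0 (-0.07 ± 0.22). Uncalled eIF3 subunits ran from -0.54 ± 0.36 for Eif3j1 to 0.52 ± 0.30 for Eif3h, with Eif3e (-0.10), Eif3f (-0.01), Eif3m (-0.23), Eif3c (0.13) and Eif3b (0.45) between. The eIF1A genes Eif1a (0.28) and Eif1ax (-0.06) were not called. Nor were Eif1ad (0.35), Eif5b (-0.16), the GTPase of subunit joining, or Eif1 itself (0.44 ± 0.26, adjusted p = 0.192).

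The eIF4 group held both the largest rise and the largest fall. Eif4a1 was at 43.7, 73.6 and 42.9 CPM with the empty virus and 169, 119 and 200 with miR-29 (1.61 ± 0.25, adjusted p = 0.000542), and Eif4a2 at 79.1, 92.1 and 70.8 against 175, 121 and 259 (1.20 ± 0.23, adjusted p = 0.00105). In neither gene do the groups overlap, though the OGD-miR-29 libraries themselves spread by over 1.5-fold. For Eif4a2 the gap between the groups, 92.1 to 121 CPM, is smaller than the spread of OGD-miR-29, 121 to 259 CPM. The eIF4A cofactors Eif4h (37.7, 45.2 and 48.8 against 64.85, 77.2 and 92.3 CPM; 0.84 ± 0.21, adjusted p = 0.00484) and Eif4b (0.62 ± 0.19, adjusted p = 0.0164) rose too. Eif4g3 (chr4:137993022-138208508), a scaffold that bridges cap and ribosome, fell from 32.1, 40.65 and 27.3 CPM to 17.1, 12.6 and 14.4 (-1.16 ± 0.23, adjusted p = 0.00126), while its paralog Eif4g1 overlapped (64.7, 56.5 and 56.3 against 64.5, 87.0 and 65.9 CPM; 0.29 ± 0.19). None of the 4 eIF4E-binding proteins, which hold eIF4E away from the scaffold, was called: Eif4ebp1 stood at -0.37 ± 0.41, Eif4ebp2 at -0.56 ± 0.33, Eif4ebp3 at 0.68 ± 0.31 and Eif4enif1, which carries eIF4E into the nucleus, at 0.34 ± 0.24. Nor were Eif4e2 (0.16 ± 0.25), the scaffold-like Eif4g2 (0.50 ± 0.23), Eif4a3 of the exon junction complex (0.27 ± 0.26), Eif5a (0.51 ± 0.23) or Eif5a2 (0.61 ± 0.26).

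Of the 8 Eef genes, counted with the auxiliary Eef1e1, 5 rose. Eef1a1, which brings charged tRNA to the ribosome, was at 161, 141 and 183 CPM with the empty virus and 262, 308 and 314 with miR-29 (0.87 ± 0.20, adjusted p = 0.00329). Its neuronal paralog Eef1a2 was not called and its libraries overlapped (70.6, 42.9 and 55.8 against 72.9, 77.2 and 46.6 CPM; 0.21 ± 0.22). The exchange factor subunits Eef1b2 (1.29 ± 0.24, adjusted p = 0.00077) and Eef1d (0.71 ± 0.26, adjusted p = 0.0345) and the auxiliary Eef1e1 (1.16 ± 0.32, adjusted p = 0.00889) rose. Eef2, the translocase, rose from 171, 157 and 184 CPM to 262, 363 and 342 (0.92 ± 0.21, adjusted p = 0.00264), and its kinase Eef2k was not called (0.21 ± 0.28), nor was Eef1g (0.58 ± 0.27).

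Of the synthetases 7 rose and none of the 20 fell at the threshold. Mars (chr10:127296221-127311786) had the lowest p, at 26.9, 28.0 and 31.1 CPM with the empty virus and 49.05, 54.0 and 88.9 with miR-29 (1.15 ± 0.23, adjusted p = 0.00114), and Sars, for serine, followed, at 30.7, 36.1 and 41.3 against 61.2, 63.0 and 101 CPM (1.06 ± 0.24, adjusted p = 0.00286). In both, OGD-miR-29 replicate 3 is the highest and every OGD-miR-29 value exceeds every OGD-empty value. The others called were Farsa (1.17 ± 0.34), Kars (0.88 ± 0.27), Qars (0.71 ± 0.26), Aars (0.63 ± 0.19) and Yars (0.63 ± 0.20), with adjusted p from 0.0107 to 0.0369. Aars, for alanine, was at 52.0, 50.1 and 63.25 CPM and then 74.6, 88.2 and 92.3. Called were 3 of the 8 enzymes of the multisynthetase complex (37.5%) and 4 of the 12 others (33.3%). Both shares are near the 37.1% of all genes called. Within the complex Eprs (-0.32 ± 0.23) and Lars (-0.07 ± 0.25) had negative values. Phenylalanyl-tRNA synthetase is made of 2 chains, of which Farsa was called and Farsb was not (0.16 ± 0.26, adjusted p = 0.658). Gars (0.41 ± 0.19, adjusted p = 0.0906), Nars (0.37 ± 0.21) and Wars (0.52 ± 0.28) were not called, and of these the Gars libraries alone did not overlap. The rest ran from -0.06 for Cars and Vars through 0.18 for Dars to 0.53 for Hars and 0.55 for Rars.

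**Figure D3:**
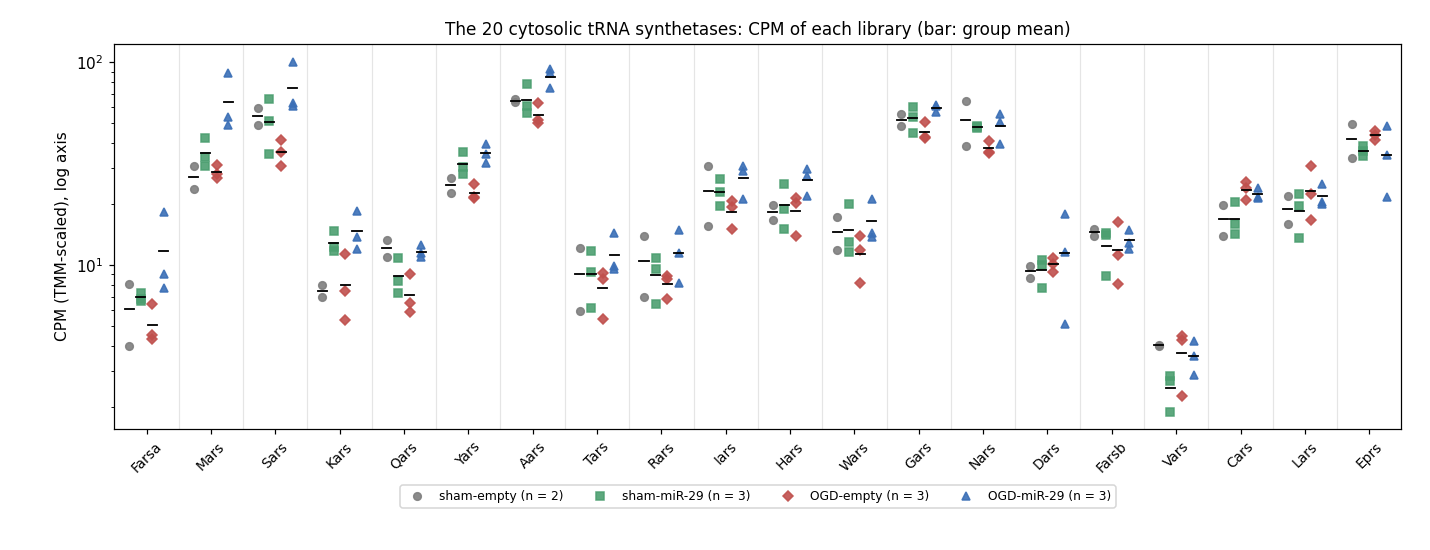
CPM (vertical log axis) of the 20 cytosolic tRNA synthetases in each library, ordered from left to right by their log2 fold change of OGD-miR-29 over OGD-empty; points are libraries, black bars are group means, and n is in the legend. Mars, Sars and Aars show OGD-miR-29 libraries wholly above the OGD-empty ones, and Eprs, Lars and Cars show overlapping groups.

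Several synthetase genes are targets of ATF4, so the windows of 250 bases before to 50 after each annotated start (RefSeq, GRCm38.p6) were searched on both strands for the core of the element ATF4 and its partners bind, TGATGNAA. A window was given for 60 of the 78 members. The letters were found in 5 of 12 synthetases (41.7%), in 1 of 48 factors (2.08%), in 2.06% of 7861 other genes of the table and in 4.11% of all 27025 windows. The stretches of 4 of the 5 synthetases, the other not being reported here, and of the factor are printed in the direction of the gene, with the match on either strand in capitals: Gars at chr6:55037960-55037989, Iars at chr13:49682126-49682155, Yars at chr4:129189895-129189924, all on the plus strand, and Tars at chr15:11399655-11399684 and the factor Eif2s3x at chrX:94212729-94212758 on the minus strand.
Gars: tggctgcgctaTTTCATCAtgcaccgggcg
Iars: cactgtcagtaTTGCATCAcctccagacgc
Tars: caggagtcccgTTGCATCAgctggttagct
Yars: acgagctcagcTGATGCAAcccgacgggac
Eif2s3x: ttcgccatcatTTTCATCAggtctatgccg

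Of the 5 genes shown Yars and Eif2s3x were called higher with miR-29 after OGD, and Gars (0.41 ± 0.19), Iars (0.53 ± 0.24) and Tars (0.61 ± 0.31) had positive values with wholly higher libraries and adjusted p from 0.0867 to 0.127. Among all genes 37.1% were called in this comparison, and 25.0% had wholly higher libraries. Sars and Kars were called higher without the letters in their windows, while Eprs had neither the letters nor a call. The part of the element in these changes was not tested. Of the genes outside the family that ATF4 drives, 20 of 22 listed were in the table. In this comparison 5 were higher and 3 lower (median 0.43), where 17.2% and 19.9% of all genes were. The share of the 20 that was called, 40%, is near the 37.1% of all genes. Higher were Atf3 (1.08 ± 0.26), Atf4 (0.97 ± 0.19), Ddit3 (0.92 ± 0.21), Psph and Asns, and lower were Slc7a11 (-1.28 ± 0.25), Vldlr (-0.87 ± 0.21) and Slc7a5. In OGD-empty against sham-empty 1 of the 20 was higher and 2 lower, where 1.48% and 3.61% of all genes were. Slc7a11 (1.78 ± 0.36) was higher, and Atf3 (-1.403 ± 0.31) and Atf4 (-0.76 ± 0.22) were lower.

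The organelle counterparts were measured beside the cytosolic genes. Of the mitochondrial synthetases, Hars2 (1.52 ± 0.27) and Cars2 (0.87 ± 0.31) rose after OGD under miR-29 and Yars2 fell (-0.86 ± 0.25). Hars2 lies opposite Hars, a member that was not called (0.53 ± 0.24), so reads of the pair cannot be told apart. None of 7 mitochondrial translation factors and neither Aimp1 nor Aimp2, scaffold proteins of the multisynthetase complex, was called. Eef1e1, an auxiliary protein of that complex, is a member and rose, as given above. Of 11 genes of termination, ribosome recycling and poly(A) binding 2 were higher and 2 lower. That share, 36.4%, is near the 37.1% of all genes called. Among them the poly(A)-binding protein Pabpc4 rose (1.63 ± 0.31) and Pabpc1 fell (-0.86 ± 0.28).

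Neighbouring rows bear on several of these values. The row of Gm22988, inside Eif4a1, holds 0.93 times its count with nearly the same change (1.64), and Snord2 and Rfc4 hold 0.92 and 0.94 times that of Eif4a2 (1.21 and 1.28). Mars lies beside Mbd6 (1.00 times its count, 1.16) and opposite Ddit3 (0.87 times, 0.92), and Eef1a1 opposite Mto1 (0.78 times, 0.92). Rows also called higher lie with Eef2 (4930442H23Rik, 1.01 times, 0.86) and Eef1b2 (Ndufs1, 1.12 times, 0.62). The same goes for Eif2b5 (Gm16618, 0.89 times, 0.96) and Eif6 (Mmp24, 1.06 times, 0.90). Rows not called lie with Qars (Qrich1, 2.7 times, 0.13), Eif2b4 (Snx17, 2.65 times, 0.49) and Eif4g3 (Hp1bp3, 0.95 times, 0.12). In each of these cases the reads of the gene and its neighbour cannot be told apart. Restricted to genes alone on their strand, 29 members were tested, and the 8 of them called in the whole table were called again: Eif1b, Eif2ak4, Eif2b2, Eif2s3x, Eif3g, Eif3i, Eif3l and Yars. Of these 8, 5 have a row on the opposite strand with over 0.5 of their count, so shared reads are not removed there: Srp14 for Eif2ak4 (0.75 times, 1.34), Ppan for Eif3g (0.95 times, 1.19), Gm25072 for Eif3l, C77080 for Yars (0.69 times, 0.74) and Mlh3 for Eif2b2 (1.09 times, 0.02). The other 3, Eif1b, Eif2s3x and Eif3i, have none. The neuron markers also moved in this comparison, 3 of 8 higher and 4 lower, where 17.2% and 19.9% of all genes were. Higher too were 1 of 3 microglia markers (Aif1, 1.54 ± 0.38) and 1 of 3 oligodendrocyte markers (Sox10, 1.14 ± 0.38). None of 5 astrocyte markers was called. The part of these markers in the result was not tested.

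Gene length moved with the changes. The 28 higher members span a median of 11.3 kb in the genome, the 48 not called 24.4 kb and the 2 lower, Eif3a and Eif4g3, 29.5 and 215.5 kb, beside 23.0 kb for the other genes tested. With the trend of each library on gene length removed, 22 members were higher and 1 lower, beside 12.2% and 11.1% of all genes, and 19 of the 30 calls were kept. The median of the 78 was then 0.43. Eif4g3, the longest, went to -0.19 ± 0.20 (adjusted p = 0.530), and Eef2 to 0.50 ± 0.21 (adjusted p = 0.0725), Eif1b to 0.57 ± 0.24 and Eif6 to 0.51 ± 0.20 lost their calls as well. Eif3a kept its value (-0.68 ± 0.20, adjusted p = 0.0117). Eif2ak4, which spans 86.6 kb, went to 1.42 ± 0.23, and Eif2ak1 (1.04 ± 0.26), the heme-regulated kinase, Eif3h (0.97 ± 0.28), Iars (0.79 ± 0.22) and Gars (0.57 ± 0.18) were called only then.

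**Figure D4:**
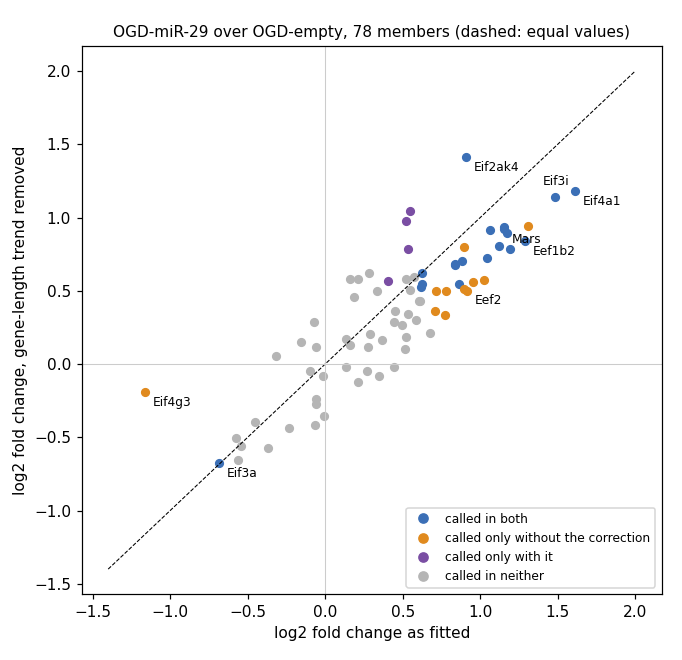
Log2 fold change of OGD-miR-29 over OGD-empty for the 78 members as fitted (horizontal axis) and with each library's trend on gene length removed (vertical axis); colours give the calls and the dashed line marks equal values. Eif4a1 lies below the line at 1.61 and 1.18, and Eif4g3 moves from -1.16 to -0.19.

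In all, 11 of the 30 called members were called under every alternative that tested them: Eif4a1, Eif4a2, Eef1b2, Eif3i, Eif3k, Eif3l, Eif4h, Eef1a1, Eif2b5, Mars and Sars. Of these 11, the fit of genes alone on their strand tested only Eif3i and Eif3l. Among the other 19 were Aars and Farsa, which lost the call without OGD-empty replicate 1 or OGD-miR-29 replicate 3 (adjusted p up to 0.0759 for Farsa), and Eif3a, which lost it without OGD-empty replicate 3 or OGD-miR-29 replicate 2 (adjusted p up to 0.0694). The fit without the 37 mitochondrial rows gave the same 30 calls.

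The last comparison asks whether OGD acted differently under the 2 viruses. For 8 members, all factors, the effect of OGD was higher under miR-29 than under the empty virus, and for 0 lower, against 4.72% and 3.66% of all genes. The median of this difference over the 78 was 0.53, with 60 above 0, and over all genes -0.03. The 8 were Eif4a1 (2.22 ± 0.36, adjusted p = 0.00663), Eif3k (1.64 ± 0.43), Eef1b2 (1.57 ± 0.36), Eif4a2 (1.56 ± 0.35), Eif3i (1.51 ± 0.40), Eif1 (1.33 ± 0.41), Eif1b (1.27 ± 0.38) and Eef1a1 (1.00 ± 0.30), the last 7 with adjusted p from 0.0122 to 0.0471. For Eif4a1 the effect of OGD was -1.80 under the empty virus and 0.42 under miR-29, and for Eef1a1 -0.69 and 0.31. No synthetase was called: the largest values were 1.17 ± 0.41 for Qars (adjusted p = 0.0732) and 1.14 ± 0.37 for Sars (adjusted p = 0.0554), and Aars stood at 0.62 ± 0.29 and Kars at 0.06 ± 0.47.

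**Figure D5:**
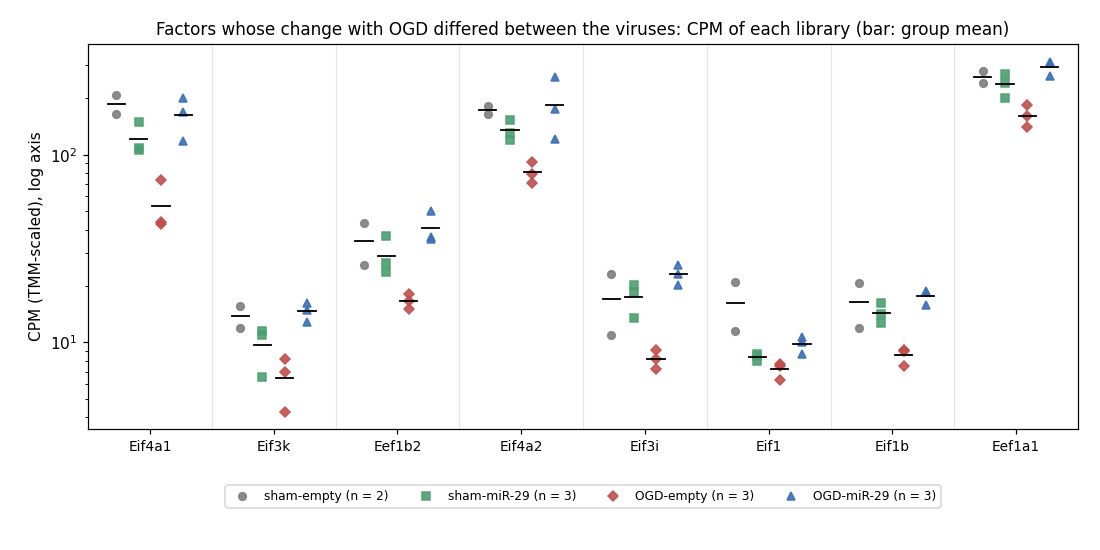
CPM (vertical log axis) of the 8 members whose change with OGD differed between the viruses, in each library; points are libraries, black bars are group means, and n is in the legend. For every gene shown the OGD-empty libraries are the lowest group mean, as for Eif4a1 with 43.7, 73.6 and 42.9 CPM.

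The 2 sham groups enter this difference as well. For Eif1, Eif3k, Eif4a1 and Eif4a2 the sham-miR-29 libraries lay wholly below the sham-empty ones, for Eif1 at 8.72, 8.455 and 7.97 against 20.9 and 11.6 CPM, and for Eef1a1, Eef1b2, Eif1b and Eif3i the sham groups overlap. With the dissection day as a block 13 members were called, 12 higher and 1 lower: Eef1e1 (1.78 ± 0.41), Eif3l (1.32 ± 0.33), Sars (1.33 ± 0.32) and Eif2b5 (1.21 ± 0.38) were added as higher and Eif4g3 (-1.23 ± 0.36) as lower. Of all genes 7.33% were called higher and 8.03% lower in that fit. Eif4a1 was called in every alternative that tested it (adjusted p up to 0.0455), which leaves out the fit of genes alone on their strand. The count fell to 1 without sham-empty replicate 2, to 3 without replicate 1 of sham-empty, replicate 2 of sham-miR-29 or replicate 3 of OGD-miR-29, and to 5 when replicate 1 of the sham-miR-29 group or replicate 2 of the OGD-miR-29 group was left out.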

How the data were processed

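The authors deposited read counts per gene symbol, not normalized, from total RNA depleted of rRNA and sequenced as TruSeq libraries (Illumina), per the labels' protocols. The submitters' processing notes name STAR 2.5.0a, featureCounts 1.4.3-p1, edgeR and, as build, mm10. The deposited column of sham-empty replicate 3 holds a score, not counts, and was left out. Unmapped sample columns: 0. The authors' 2 comparison tables were not used here.

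Counts were tested with edgeR 4.0.16 (R 4.3.3; robust quasi-likelihood F test, TMM, filterByExpr) in 1 fit of 11 libraries with 4 group means, Benjamini-Hochberg over 12119 genes, called at an adjusted p under 0.05; SE is the absolute log2 fold change divided by the root of F. The script was tested on simulated data. CPM are counts over the TMM-scaled library total, mitochondrial rows included. Log2 fold changes carry their SE, and values are given per library. Alternatives were DESeq2 1.42.0 (size factors; Wald test), limma-voom 3.58.1, no filter, no mitochondrial rows, the replicate block, a length trend (spline, 4 degrees of freedom) removed, genes alone on their strand, only the groups compared, and leaving out each library. Depth, 1337564 to 6616920 counts per library, limits precision at low counts.

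Members and lists were chosen with earlier results of these data known. Named genes are up to 15 called members per direction and comparison and 18 fixed ones; other members are named to account for all. Replicates were dissected on distinct days, per the design text, so equal numbers pair libraries; deviations of same-numbered libraries correlated at -0.09 to 0.23 (median 0.007, 15 pairs) and others at -0.24 to 0.20. Marker and pathway lists were matched by symbol. Promoter windows and miRNAs are from RefSeq tables, and no protein sequence was used. Some values of the pathway lists and promoter windows are not reported here.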

Additional observations from a re-analysis of the deposited data

Results flagged for a closer look

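For 8 members the effect of OGD differed between the viruses by a test of the difference itself (the interaction term in edgeR's fit, adjusted p under 0.05 over all genes). The effect under miR-29 minus the effect under the empty virus, in log2 units, was 2.22 for Eif4a1, 1.64 for Eif3k, 1.57 for Eef1b2, 1.56 for Eif4a2, 1.51 for Eif3i, 1.33 for Eif1, 1.27 for Eif1b and 1.00 for Eef1a1. Eif4a1 was called in 19 of 19 alternatives, Eef1b2 in 18 of 19, Eif4a2 in 17 of 19, Eif3i in 17 of 20 and Eif3k in 13 of 19. Eef1a1 (9 of 19), Eif1b (8 of 20) and Eif1 (5 of 20) were called in fewer than 1 in 2. The groups are too small for a test of single libraries that stand apart.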

How the results depend on the processing

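In no alternative did a called member change direction. OGD-empty against sham-empty depended most on the setting: 5 members were called, 3 with DESeq2's size factors, 3 without the mitochondrial rows, 3 with limma-voom, 1 with the length trend removed and no block, 9 with the replicate block, 2 among 29 genes alone on their strand, 2 in a fit of only the groups compared, and 0 to 3 without single libraries. OGD-miR-29 against OGD-empty had 30 calls, 8 among the genes alone on their strand (fewer members tested), and 20 to 29 without single libraries; DESeq2 gave 24. The interaction had 8 calls, 13 with the replicate block, 4 among the genes alone on their strand, and 1 to 11 without single libraries. The replicate block ended 1 call, that of Eif2s3x after OGD (adjusted p = 0.0538). OGD-miR-29 against sham-miR-29 and the viruses in sham cultures gave 0 calls in every alternative. The cause of these differences was not tested, beyond the smaller number of genes or libraries where one was left out. After OGD, leaving out OGD-empty replicate 1 ended 10 calls (adjusted p 0.0608 to 0.185), OGD-empty replicate 2 ended 2, OGD-empty replicate 3 ended 8, OGD-miR-29 replicate 1 ended 3, OGD-miR-29 replicate 2 ended 10 (0.0637 to 0.107) and OGD-miR-29 replicate 3 ended 10 (0.0503 to 0.159). Where an arm has 1 library, its spread is taken from the other groups.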
